A study of Mus musculus with 44 samples.

Results

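Tag-Capture-C, in which the transposase Tn5 cuts DNA and adds the sequencing adapters in a single reaction, was compared with LI-Capture-C, in which the DNA is sonicated and adapters are ligated, at 100 ng of 3C library. The comparison holds 6 of the 44 samples of the series, 3 LI-Capture-C and 3 Tag-Capture-C libraries, chosen by the protocol and the input that their labels give. All 6 were made from Ter-119+ erythroid cells, selected on magnetic beads from spleen, taken from C57BL/6 females given phenylhydrazine, a drug that destroys red blood cells and expands the erythroid compartment of the spleen. The cells were fixed with 2% formaldehyde, their chromatin was cut by DpnII, a restriction enzyme, and religated, and 12 libraries made in the same way from 200 and 50 ng were used only to see whether a difference recurred. The 3 libraries of a group are described by the study both as aliquots and as biological replicates, so p-values measure the spread between these libraries, which may be technical.

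In a 3C library, restriction fragments that were close together in the nucleus are joined, and capture oligonucleotides pull out the joints of a chosen promoter, the viewpoint. The viewpoints here were the promoter pairs of the adult α-globin genes and of the adult β-globin genes, which encode the chains of haemoglobin, and the promoter of Slc25a37, which encodes mitoferrin 1, the importer of iron into mitochondria for haem synthesis. In erythroid cells the α-globin promoters contact enhancers that lie on the lower-coordinate side, most of them in the introns of Nprl3, and the β-globin promoters contact the locus control region, a group of enhancers on the higher-coordinate side beyond the embryonic globin genes. Positions below are in mm9, the build named in the submitters' processing notes. In coordinate order, RefSeq lists Rhbdf1, Mpg, Nprl3 and Hba-x before the adult α-globin genes, olfactory receptor genes before and Hbb-bh1 and Hbb-y after the adult β-globin genes, and Synb and Entpd4 after Slc25a37.

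The promoter sequences of each globin pair were compared. They are the 250 bases before each start in RefSeq (GRCm38.p6), written 5′ to 3′ with the DpnII site GATC, which reads the same on both strands, in capitals.
Hba-a1 (chr11:32283422-32283671, + strand): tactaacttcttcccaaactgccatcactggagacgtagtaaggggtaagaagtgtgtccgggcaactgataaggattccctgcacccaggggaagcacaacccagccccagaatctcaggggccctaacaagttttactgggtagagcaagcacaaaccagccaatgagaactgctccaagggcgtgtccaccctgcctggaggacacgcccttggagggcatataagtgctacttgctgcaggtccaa
Hba-a2 (chr11:32296242-32296491, + strand): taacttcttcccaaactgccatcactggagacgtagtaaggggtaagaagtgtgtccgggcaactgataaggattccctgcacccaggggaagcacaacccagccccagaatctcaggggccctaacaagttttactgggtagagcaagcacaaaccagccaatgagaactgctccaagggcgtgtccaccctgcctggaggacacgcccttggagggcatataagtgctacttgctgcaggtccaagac
Hbb-bt (chr7:103813924-103814173, - strand): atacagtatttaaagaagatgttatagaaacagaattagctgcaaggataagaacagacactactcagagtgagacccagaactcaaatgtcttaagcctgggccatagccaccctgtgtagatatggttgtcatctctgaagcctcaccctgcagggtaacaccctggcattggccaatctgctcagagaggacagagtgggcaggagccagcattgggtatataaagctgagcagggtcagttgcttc
Hbb-bs (chr7:103827929-103828178, - strand): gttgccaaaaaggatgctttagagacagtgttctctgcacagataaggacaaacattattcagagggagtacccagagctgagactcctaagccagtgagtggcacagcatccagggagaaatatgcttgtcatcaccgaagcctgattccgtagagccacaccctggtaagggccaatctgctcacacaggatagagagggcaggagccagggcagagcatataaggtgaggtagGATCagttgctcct
Of the 300 bases that the table holds for each α-globin promoter, 297 are the same unbroken run in Hba-a1 and Hba-a2, shifted by 3 bases. The longest run that the β-globin promoters share in these 250 bases is 14 bases. A DpnII site occurs in the window of Hbb-bs and in none of the other 3 shown, and 41.9% of the 32851 promoters in the table hold at least 1. The sequence of Slc25a37 was not used here. The captured viewpoints are DpnII fragments at the promoters, not these bases alone. According to the paper, interactions of the duplicated α- and β-globin promoters could not be told apart bioinformatically. The deposited counts pool the promoters of a pair, and fragments next to the captured ones are left unlisted or at 0. These excluded intervals are chr11:32181399-32185213 and chr11:32194504-32198003 for α-globin, chr7:110959283-110964281 and chr7:110974902-110977621 for β-globin, and chr14:69901432-69905815 for Slc25a37.

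Depth differed between the protocols at α-globin only. There the LI-Capture-C libraries held 13645, 13828 and 13210 unique interactions and the Tag-Capture-C libraries 9035, 9836 and 9573. At β-globin the totals were 10517 to 11567 and 9973 to 10878, and at Slc25a37 4156 to 4302 and 4261 to 4631, so the protocols overlapped at both. Local interactions, those within 250 kb of the nearest captured promoter, made up 35.3% to 37.9% of all interactions at α-globin, 30.7% to 34.1% at β-globin and 37.0% to 38.2% at Slc25a37.

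The local interaction profiles of the protocols had almost the same shape. Over 5 kb windows within 250 kb of the viewpoint, scaled to 100000 interactions per library, r-values between an LI-Capture-C and a Tag-Capture-C library averaged 0.986 at α-globin (0.978 to 0.991 over 9 pairs), 0.982 at β-globin (0.970 to 0.990) and 0.972 at Slc25a37 (0.954 to 0.984). Within LI-Capture-C they averaged 0.993, 0.987 and 0.975 over 3 pairs each, and within Tag-Capture-C 0.987, 0.984 and 0.978. The r-values between protocols lay below those within LI-Capture-C for every pair at α-globin and overlapped them at the other viewpoints. Over single fragments they overlapped at α-globin (0.874 to 0.906 between protocols and 0.898 to 0.911 within LI-Capture-C) and at Slc25a37 (0.769 to 0.869 and 0.797 to 0.836). At β-globin the fragment r-values between protocols all lay below those within LI-Capture-C (0.856 to 0.882 and 0.889 to 0.902). The window r-values are a description across 101 to 104 windows that share the fall of contact with distance. Between protocols they fell to averages of 0.891, 0.868 and 0.823 over single restriction fragments and to 0.762, 0.774 and 0.720 on the log2 scale. On the log2 scale the averages within LI-Capture-C were lower, at 0.758, 0.751 and 0.713, and those within Tag-Capture-C higher, at 0.765, 0.789 and 0.776. Over single fragments they were 0.905, 0.895 and 0.815 within LI-Capture-C and 0.894, 0.886 and 0.867 within Tag-Capture-C. The spread between replicates was close as well. The median coefficient of variation over the tested windows was 16.5% for LI-Capture-C and 17.2% for Tag-Capture-C at α-globin, 20.1% for both at β-globin, and 15.0% and 13.3% at Slc25a37.

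**Figure D1:**
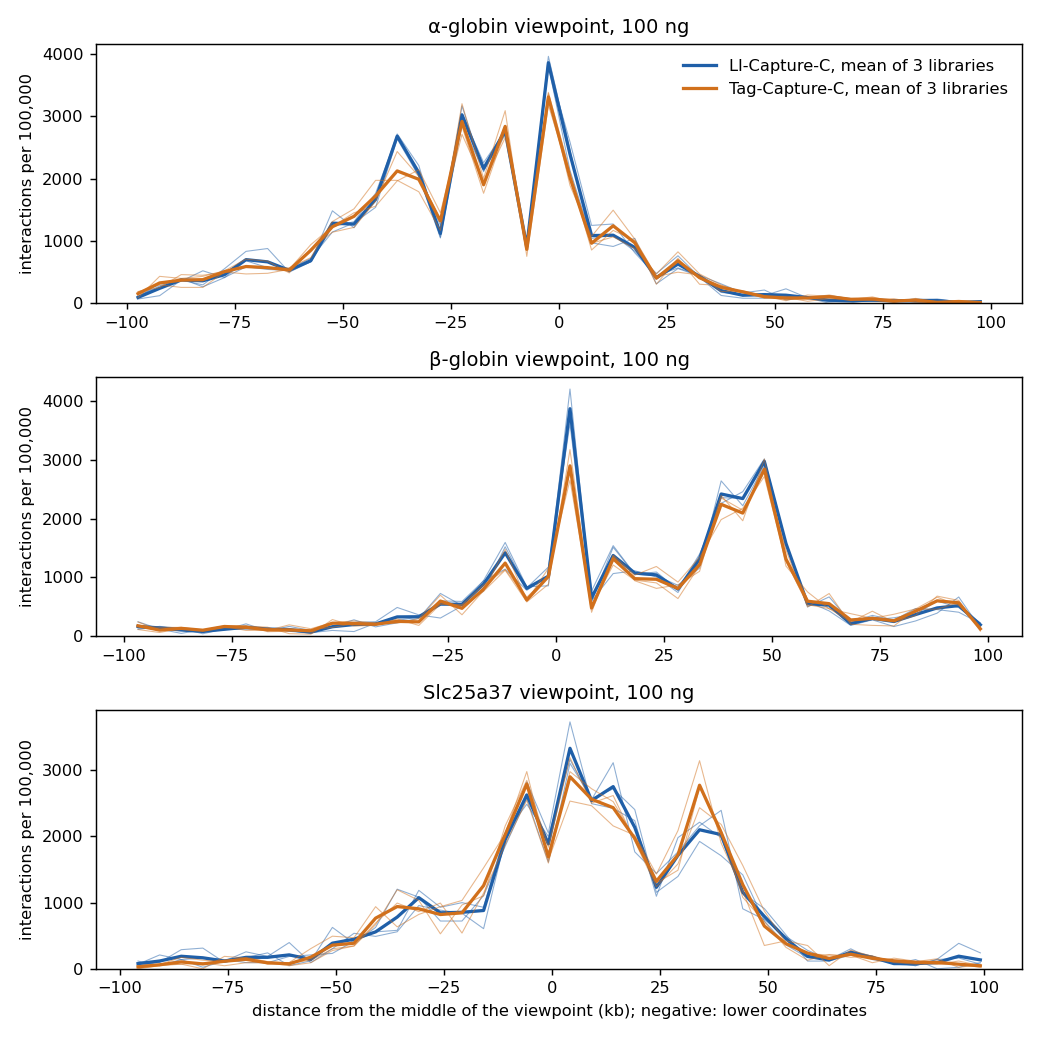
Interactions per 100000 in 5 kb windows within 100 kb of the middle of each viewpoint, with a thin line for each library and a thick line for the mean of the 3 libraries of a protocol. The lines follow each other closely, and the window between the α-globin promoters averaged 3861 in LI-Capture-C and 3310.5 in Tag-Capture-C.

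The strongest contacts on each side of the viewpoints were found by both protocols at close levels. On the α-globin enhancer side, the window chr11:32165001-32170000, 16.0 kb from the nearest promoter, held 3166, 3037 and 2869 interactions per 100000 in LI-Capture-C and 2712, 3203 and 2841 in Tag-Capture-C. The window chr11:32175001-32180000 held 2767 ± 67.0 (SD, n = 3) and 2838 ± 225.5. On the opposite side the strongest windows were far lower, with 1092 ± 180 and 1243 ± 224 at chr11:32200001-32205000 and 1086 ± 145 and 963 ± 110 at chr11:32195001-32200000. The window chr11:32195001-32200000 overlaps an excluded interval, so part of it could hold no count. The protocols overlapped in each of these 4 windows.

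At β-globin the strongest windows outside the promoters lay on the side of the locus control region. The window chr7:111015001-111020000, 41.3 kb from the nearest promoter, held 2905, 3020 and 3005 interactions per 100000 in LI-Capture-C and 3018, 2721 and 2793 in Tag-Capture-C. At chr7:111005001-111010000 the levels were 2422 ± 199 and 2246 ± 226. The strongest windows on the side of the olfactory receptor genes, chr7:110955001-110960000 and chr7:110950001-110955000, held 1419 ± 244 and 886 ± 101 in LI-Capture-C and 1244 ± 203 and 803 ± 61.5 in Tag-Capture-C. At Slc25a37 the strongest windows were chr14:69905001-69910000 (3332 ± 347 and 2902 ± 336) and chr14:69915001-69920000 (2753 ± 346 and 2435 ± 243) on the higher side, and chr14:69895001-69900000 (2628 ± 174 and 2792 ± 222) and chr14:69890001-69895000 (1952 ± 96.6 and 2026.5 ± 141) on the lower side. The windows chr7:110955001-110960000 and chr14:69905001-69910000 overlap excluded intervals in part. None of these 8 windows passed the test between protocols given below.

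The balance between the sides of a viewpoint did not differ detectably. The log2 ratio of interactions on the lower-coordinate side to those on the higher side, 5 to 100 kb from the viewpoint, was 2.41, 2.45 and 2.26 at α-globin in LI-Capture-C and 2.22, 2.28 and 2.26 in Tag-Capture-C, so the enhancer side dominated in every library. At β-globin it was -1.84 ± 0.07 and -1.84 ± 0.10 (SD, n = 3), towards the locus control region, and at Slc25a37 -0.80 ± 0.07 and -0.78 ± 0.09. The protocols overlapped at each viewpoint (0% of 3 without overlap), and the exact two-sided permutation test gave p of 0.2, 1 and 0.6, where 3 libraries against 3 cannot go below 0.1. The difference at α-globin, -0.12, was also negative at 200 and 50 ng (-0.23 and -0.12), and over the 3 inputs together it did not pass (adjusted p = 0.1245, exact permutation of protocol labels within inputs).

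How local interactions were spread over distance differed more. Local interactions were split by the distance of the fragment from the nearest captured promoter into 6 classes per viewpoint, and in 7 of the 18 resulting shares (38.9%) the libraries of the protocols did not overlap, 4 higher and 3 lower in Tag-Capture-C. The shares of a viewpoint add up to 100%, so they are not independent. The differences were small, at most 2.88 percentage points, and no exact p could go below 0.1, so the smallest adjusted p was 0.257.

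The share closest to the promoters was lower in Tag-Capture-C on average at each viewpoint. Within 5 kb of a β-globin promoter lay 19.6%, 19.7% and 20.1% of the local interactions of LI-Capture-C and 17.5%, 16.4% and 17.5% of those of Tag-Capture-C, with no overlap. At α-globin the shares were 21.3% ± 0.72 (SD, n = 3) and 19.9% ± 0.80, and at Slc25a37 13.7% ± 1.2 and 12.3% ± 0.88, both with overlapping libraries. At 200 ng the difference was larger at α-globin and Slc25a37 (-2.03 and -2.40 points, against -1.37 and -1.39 at 100 ng) and smaller at β-globin (-1.93 against -2.69), and at 50 ng it was 0.0405, 0.196 and -0.835 points. Over the 3 inputs the lower share passed at β-globin and at Slc25a37 (adjusted p = 0.0371 at each, exact permutation of labels within inputs, 8000 assignments) and not at α-globin (0.152). The share at 100 to 250 kb from the β-globin promoters, 8.16% ± 0.273 and 8.55% ± 0.408 at 100 ng with overlapping libraries, was higher in Tag-Capture-C by 0.811, 0.392 and 0.965 points at 200, 100 and 50 ng and also passed over the 3 inputs (adjusted p = 0.0371, exact permutation).

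The class of 50 to 100 kb differed in opposite directions between viewpoints. In the β-globin locus it held 14.1%, 13.9% and 12.4% of local interactions in LI-Capture-C and 16.4%, 15.9% and 15.2% in Tag-Capture-C. At α-globin it held 12.2%, 12.7% and 13.4% against 14.3%, 13.5% and 13.9%, so the values of Tag-Capture-C lay above those of LI-Capture-C at both globin loci, narrowly at α-globin. At Slc25a37 it was lower in Tag-Capture-C, 7.37%, 7.52% and 6.76% against 9.12%, 9.40% and 9.74%. The α-globin difference was 1.13 points at 100 ng, 1.67 at 200 ng and 1.86 at 50 ng and passed over the 3 inputs (adjusted p = 0.0045, exact permutation). At β-globin the difference was 2.35 points at 100 ng, 1.81 at 200 ng and -1.31 at 50 ng. At Slc25a37 it was -2.20 points at 100 ng and had the opposite sign at the other inputs, 0.205 at 200 ng and 0.818 at 50 ng. As shares of all cis interactions, those with the viewpoint's chromosome, the globin differences at 100 ng were 0.209 and 0.485 points, with overlapping libraries (exact permutation p = 0.6 and 0.4). The Slc25a37 difference in this class was -1.33 points of cis interactions.

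Slc25a37 had further shares without overlap. The class of 25 to 50 kb held 30.6%, 29.9% and 30.1% in LI-Capture-C and 33.4%, 32.8% and 33.1% in Tag-Capture-C, the largest difference of the 18, and the class of 5 to 10 kb held 14.7% ± 0.494 and 15.65% ± 0.413. As shares of cis interactions these differences were 1.22 and 0.342 points. Both were smaller or of opposite sign at other inputs, with -0.118 and 0.280 points at 200 ng and -0.324 and -0.179 at 50 ng. At β-globin the class of 5 to 10 kb was lower in Tag-Capture-C (10.1% ± 0.131 and 9.65% ± 0.323). No difference between the protocol effect at 100 ng and that at 200 or 50 ng passed in any class (smallest adjusted p 0.27 and 0.18, exact permutation). This permutation of protocol labels within inputs supposes no protocol difference at either input. It is weak where both differences have the same sign, so it does not show that the effects were equal.

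**Figure D2:**
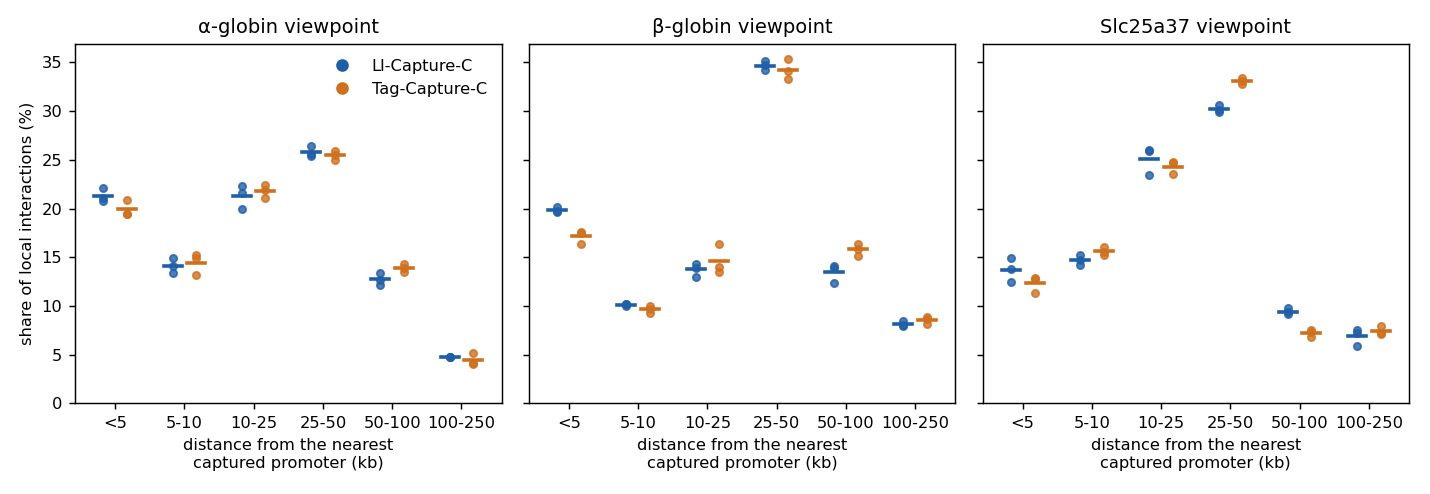
Share of local interactions, in percent, by distance from the nearest captured promoter at 100 ng, with a point for each library and a bar at the mean of the 3 libraries of a protocol. The classes without overlap are under 5, 5 to 10 and 50 to 100 kb at β-globin, 50 to 100 kb at α-globin, and 5 to 10, 25 to 50 and 50 to 100 kb at Slc25a37.

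Between the promoters of a pair, Tag-Capture-C counted fewer interactions at both globin loci, a measure added after the data were seen. The interval between the α-globin promoters held 16.5%, 17.3% and 16.9% of local interactions in LI-Capture-C and 14.5%, 14.8% and 15.6% in Tag-Capture-C. Between the β-globin promoters the shares were 16.9%, 16.1% and 18.6% against 15.1%, 14.8% and 14.4%. Neither pair of groups overlapped, which was so for 2 of the 8 shares by position computed (25%), and the exact permutation p was 0.1 at each. The differences were -1.38 and -1.74 points at 200 ng and -0.353 and -0.336 at 50 ng, and over the 3 inputs the adjusted p was 0.0567 for α-globin and 0.03 for β-globin (exact permutation).

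Single 5 kb windows were then tested on the counts with the quasi-likelihood test of edgeR, scaled over the tested windows, with the log2 fold change taken as Tag-Capture-C over LI-Capture-C. Of the α-globin windows, 2 of 41 passed an adjusted p of 0.05 (4.88%), both lower in Tag-Capture-C. At β-globin 0 of 49 windows passed (0%), with 3 at an unadjusted p under 0.05, and at Slc25a37 0 of 23 (0%), with 2, while DESeq2 called 0 at both with 1 unadjusted at each. The median size of the log2 fold change, in either direction, was 0.16, 0.19 and 0.20 at α-globin, β-globin and Slc25a37.

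The first called window, chr11:32150001-32155000, lies on the enhancer side, 31.0 kb from the nearest α-globin promoter. It held 2638, 2690 and 2718 interactions per 100000 in LI-Capture-C and 2435, 1972 and 1964 in Tag-Capture-C, a log2 fold change of -0.32 (SE 0.09, edgeR adjusted p = 0.0119). Every Tag-Capture-C library lay below every LI-Capture-C library, and replicate 1 of Tag-Capture-C was the closest to them. In a fit of all 18 libraries the log2 fold change was -0.12 at 200 ng and -0.16 at 50 ng, and the adjusted edgeR p there was 0.444 and 0.533. The call was kept without that replicate and was lost when any other library was left out, with log2 fold changes from -0.42 to -0.25, and in a fit of all 18 libraries (adjusted p = 0.122).

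The second, chr11:32185001-32190000, lies between the α-globin promoters, 4.0 kb from the nearest, and was the strongest window of the profile. It held 3811, 3963 and 3808 interactions per 100000 in LI-Capture-C and 3365, 3182 and 3385 in Tag-Capture-C, a log2 fold change of -0.21 (SE 0.07, edgeR adjusted p = 0.0459). The groups were well apart, but the call was close to the threshold and was lost without any 1 of the 6 libraries, with DESeq2 (adjusted p = 0.0529) and with all 18 libraries in the fit (0.244). At 200 and 50 ng the log2 fold change was -0.13 and 0.01.

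The corresponding window between the β-globin promoters, chr7:110970001-110975000, had the smallest p of those lower in Tag-Capture-C. It held 3622, 3795 and 4212 interactions per 100000 in LI-Capture-C and 3179, 2868 and 2660 in Tag-Capture-C, with no overlap. The log2 fold change of -0.33 (SE 0.10) had an edgeR adjusted p of 0.372. It passed when libraries were scaled to their totals (adjusted p = 0.00056) and without replicate 1 of Tag-Capture-C (0.0127), and was -0.26 at 200 ng and -0.02 at 50 ng. In the other 8 of the 10 alternatives with the same tested windows it did not pass, as in the fit of all 18 libraries (edgeR adjusted p = 0.191). The window with the smallest p among those higher in Tag-Capture-C, chr7:110865001-110870000, rests on 9 to 22 interactions per library (log2 fold change 0.83, SE 0.36, edgeR adjusted p = 0.651).

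At Slc25a37 the window chr14:69935001-69940000, 34.2 kb from the promoter on the higher side, held 2162, 2215 and 1925 interactions per 100000 in LI-Capture-C and 3145, 2742 and 2435 in Tag-Capture-C. The libraries did not overlap, and the log2 fold change of 0.36 (SE 0.11) had an edgeR adjusted p of 0.133. It was 0.11 at 200 ng and 0.0031 at 50 ng, and it passed with totals as scaling (adjusted p = 0.0346) and without replicate 3 of Tag-Capture-C (0.0148). In the other 8 of the 10 alternatives with the same tested windows it did not pass, as in the fit of all 18 libraries (edgeR adjusted p = 0.107). The lower window with the smallest p was chr14:69905001-69910000, next to the promoter, at -0.24 (SE 0.10, edgeR adjusted p = 0.385). At 200 ng it was -0.35 and passed in the fit of all 18 libraries (edgeR adjusted p = 0.014).

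**Figure D3:**
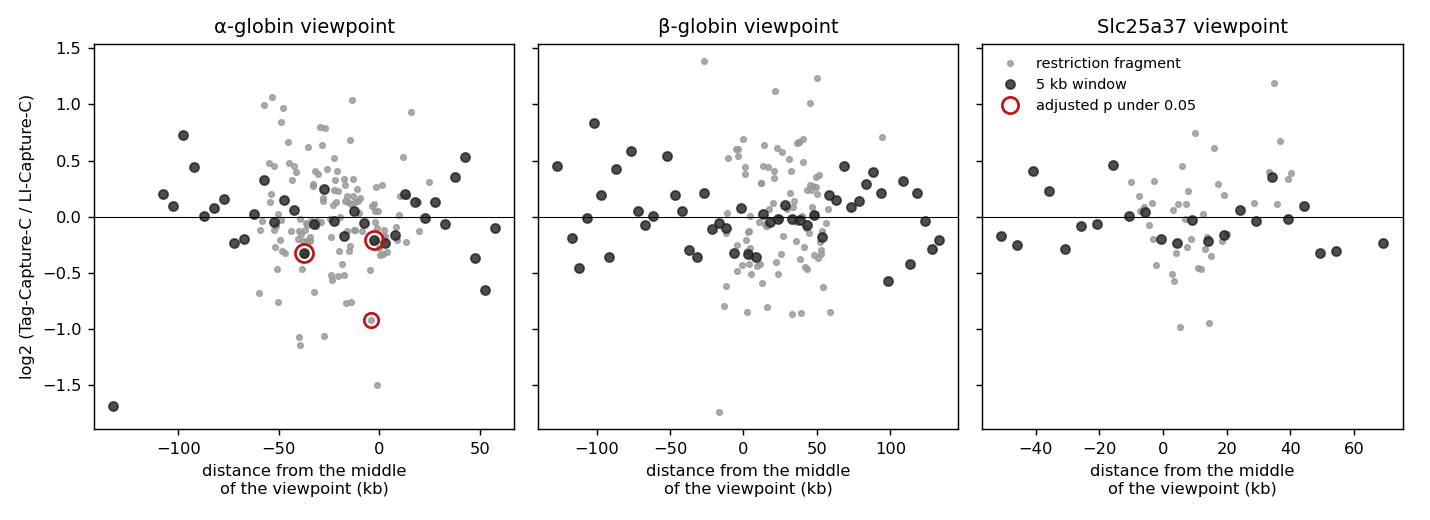
Log2 fold change of Tag-Capture-C over LI-Capture-C at 100 ng for each tested 5 kb window and restriction fragment within 150 kb of the middle of each viewpoint, with red rings around those past an adjusted edgeR p of 0.05. The 3 rings are all at α-globin and below 0.

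Single restriction fragments also gave few calls. At α-globin 1 of 131 fragments passed (0.763%), lower in Tag-Capture-C, at β-globin 0 of 98 (0%), with 12 at an unadjusted p under 0.05, and at Slc25a37 0 of 41 (0%), with 5. DESeq2 called 1, 0 and 0, with 7, 6 and 1 unadjusted. The median size of the log2 fold change was 0.23, 0.35 and 0.28, and scaling to total interactions in place of the tested fragments would shift the β-globin values by -0.16.

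The called fragment, chr11:32185293-32185902, is 610 bp long, lies between the α-globin promoters and is the second listed fragment after the excluded interval of the first promoter. It held 70, 61 and 65 interactions in LI-Capture-C and 14, 24 and 31 in Tag-Capture-C, which is 482 ± 37.0 and 241 ± 84.5 per 100000 (SD, n = 3). The log2 fold change was -0.92 (SE 0.20, edgeR adjusted p = 0.00328), and it was -0.42 at 200 ng and -0.78 at 50 ng. The call was lost without replicate 2 or 3 of LI-Capture-C, without replicate 1 of Tag-Capture-C, with all 18 libraries in the fit (adjusted p = 0.307) and with the replicate number as a block (0.239). With a minimum mean count of 5, 0 of 203 fragments passed, with 12 at an unadjusted p under 0.05. The other 12 fragments of its window held 3378 ± 124 and 3069.5 ± 136 interactions per 100000, again without overlap.

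The β-globin fragment with the smallest p, chr7:111008142-111009073, was lower in Tag-Capture-C at each of the 3 inputs. It is 932 bp long and lies 32.4 kb from the nearest promoter, on the side of the locus control region. At 100 ng it held 55, 66 and 45 interactions in LI-Capture-C and 22, 32 and 23 in Tag-Capture-C, or 499 ± 86.1 and 245 ± 42.9 per 100000, without overlap. The log2 fold change of -0.86 (SE 0.25) narrowly missed the threshold (edgeR adjusted p = 0.0538). It passed with totals as scaling (adjusted p = 0.0036) and without replicate 3 of LI-Capture-C (0.0186). In the other 8 of the 10 alternatives with the same tested fragments it did not pass. One of these was the fit of all 18 libraries (edgeR adjusted p = 0.114 at 100 ng).

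The same fragment was lower in Tag-Capture-C in the libraries of the other inputs, which the 100 ng comparison did not use. At 200 ng it held 438 ± 62.7 and 182 ± 44.9 interactions per 100000 (log2 fold change -1.04, edgeR adjusted p = 0.00404), and at 50 ng 524 ± 104 and 165 ± 59.6 (-1.90, adjusted p = 1.72e-05). Both p-values came from the fit of all 18 libraries. In none of the 3 inputs did the groups overlap, and over the inputs together the log2 fold change was -1.27 (edgeR adjusted p = 9.13e-10). The other 10 fragments of its 5 kb window held 1923 ± 251.2 and 2001 ± 268.8 interactions per 100000 at 100 ng, 2031 ± 185 and 1774 ± 131 at 200 ng, and 1867 ± 530.1 and 1986 ± 308 at 50 ng. The libraries of the protocols overlapped at each input. At 200 ng the summed difference in these other fragments, -257 per 100000, was about as large as that of the fragment itself. As a ratio of Tag-Capture-C to LI-Capture-C it was smaller, at 0.873 for the other fragments and 0.417 for the fragment. The GC content and other sequence features of the fragment were not examined.

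The remaining named fragments did not recur. At chr7:110941709-110943025 Tag-Capture-C held 12 to 19 interactions and LI-Capture-C 2 to 11 (log2 fold change 1.38, SE 0.49, edgeR adjusted p = 0.12), against -0.04 at 200 ng and -0.26 at 50 ng. At Slc25a37 the fragments with the smallest p were chr14:69937683-69938358, at 1.19 (SE 0.44), and chr14:69917419-69917869, at -0.95 (SE 0.36), both with an adjusted p of 0.23. The first was 0.25 and -0.82 at 200 and 50 ng and the second 0.01 and 0.10.

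Over the 3 inputs together, a fit added after the data were seen, few features differed. At β-globin 2 of 98 fragments (2.04%) passed, the one described and chr7:110971560-110972253 between the promoters (log2 fold change -0.82, edgeR adjusted p = 0.0374), and 2 of 49 windows (4.08%), 1 in each direction. The lower window was chr7:110970001-110975000, described above (log2 fold change -0.19, edgeR adjusted p = 0.0324). The higher was chr7:110980001-110985000 (0.30, edgeR adjusted p = 0.0156), with 0.11, 0.07 and 0.72 at 200, 100 and 50 ng in the same fit. At α-globin the fragment described was the only 1 of 131 to pass (0.763%, log2 fold change -0.70, edgeR adjusted p = 0.0233), and 0 of 41 windows did (0%), with 9 at an unadjusted p under 0.05. At Slc25a37 0 of 41 fragments passed (0%), with 5 unadjusted, and 3 of 23 windows (13%), all lower in Tag-Capture-C and 1 of them over the promoter itself. Another of the 3 was chr14:69905001-69910000, described above (log2 fold change -0.22, edgeR adjusted p = 0.0255). No window or fragment had a tested difference between the protocol effect at 100 ng and that at 200 or 50 ng that passed.

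**Figure D4:**
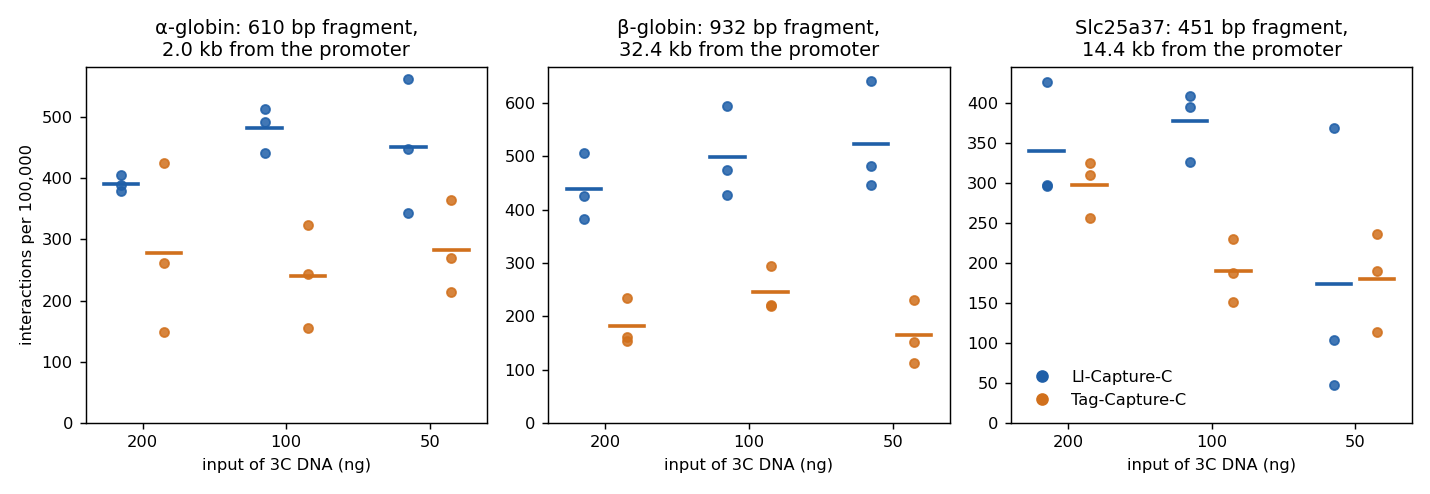
Interactions per 100000 at the fragment lower in Tag-Capture-C with the smallest p at each viewpoint, by input of 3C DNA, with a point for each library and a bar at the mean of the 3 libraries. The β-globin fragment averaged 438, 499 and 524 in LI-Capture-C and 182, 245 and 165 in Tag-Capture-C at 200, 100 and 50 ng.

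Fragment length was compared because the protocols break DNA in different ways. Local interactions were split by the length of the DpnII fragment into 5 classes, and in 1 of the 15 shares (6.67%) the protocols did not overlap. At Slc25a37, fragments of 300 to 600 bp held 32.1%, 32.9% and 32.4% of local interactions in LI-Capture-C and 32.0%, 31.7% and 30.3% in Tag-Capture-C (adjusted p = 1, exact permutation). The differences in the 15 shares had a median size of 0.29 percentage points.

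Outside the local window, Tag-Capture-C counted fewer interactions with other chromosomes and more with distant parts of the same chromosome, in measures added after the data were seen. Interactions with other chromosomes were 34.2%, 34.3% and 34.1% of the α-globin total in LI-Capture-C and 32.8%, 32.5% and 33.5% in Tag-Capture-C. At β-globin the shares were 36.9% ± 0.44 (SD, n = 3) and 36.0% ± 0.46, and at Slc25a37 33.0% ± 0.20 and 31.6% ± 0.42, each without overlap, as were 7 of the 15 shares of this family (46.7%). At 200 and 50 ng the differences in the share of other chromosomes were -1.28 and -6.21 points at α-globin, 1.33 and -5.78 at β-globin, and 0.475 and -6.85 at Slc25a37. Beyond 10 Mb the share was 18.6% ± 0.27 and 20.1% ± 0.31 at α-globin and 16.7% ± 0.24 and 18.8% ± 0.56 at β-globin, also without overlap, and 14.4% ± 0.46 and 15.0% ± 0.56 at Slc25a37, with overlap. Over the 3 inputs the differences beyond 10 Mb passed at each viewpoint (adjusted p = 0.0025 at α-globin and 0.003 at the others, exact permutation). The local share itself was lower in Tag-Capture-C without overlap at β-globin (33.2% ± 0.90 and 30.7% ± 0.013). That difference was -4.22 points at 200 ng and had the opposite sign at 50 ng, at 1.31 points.

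Interactions per distinct fragment beyond 1 Mb were lower in Tag-Capture-C at each viewpoint. The number of distinct fragments there was higher in Tag-Capture-C at β-globin (1491 to 1561 and 1897 to 2154) and overlapped at α-globin (1358 to 1522 and 1329 to 1470). At Slc25a37, where totals were close, 776 to 792 distinct fragments beyond 1 Mb had a count in LI-Capture-C and 981 to 1148 in Tag-Capture-C. The interactions per distinct fragment there were 1.45, 1.44 and 1.44 against 1.18, 1.13 and 1.14. They were 2.28, 2.35 and 2.34 against 1.82, 1.83 and 1.798 at α-globin, and 2.06, 2.00 and 1.98 against 1.62, 1.59 and 1.58 at β-globin. Of the 6 measures of this kind, 5 were without overlap (83.3%), the exception being the local window at Slc25a37, and the difference beyond 1 Mb passed at each viewpoint over the 3 inputs (adjusted p = 0.000375, exact permutation). The local measure at α-globin was 12.0 ± 0.38 in LI-Capture-C and 8.44 ± 0.16 in Tag-Capture-C. In LI-Capture-C it was 19.1 at 200 ng and 7.13 at 50 ng. Depth differed between the protocols at α-globin, and its part in the local measure was not tested.

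Within those means, the protocols differed in how often a distant fragment was counted several times. At Slc25a37, 64.7% ± 0.79 (SD, n = 3) of the distant fragments with a count held exactly 1 interaction in LI-Capture-C and 86.7% ± 1.9 in Tag-Capture-C. At α-globin the most common count was 2, at 41.5% ± 2.0 of fragments in LI-Capture-C and 58.9% ± 2.4 in Tag-Capture-C, and counts of 4 made up 18.6% ± 0.86 and 2.24% ± 0.40. At β-globin counts of 2 made up 37.3% ± 1.9 and 43.9% ± 0.91 and counts of 4 12.7% ± 0.59 and 1.27% ± 0.17. Counts of 2 made up 27.8% ± 0.791 and 12.0% ± 1.48 at Slc25a37, a single promoter. The counts called unique interactions are therefore not shown to be that many independent molecules at any of the viewpoints, and whether pooling of a promoter pair counts an interaction more than once, which would bear on the globin totals, was not tested.

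**Figure D5:**
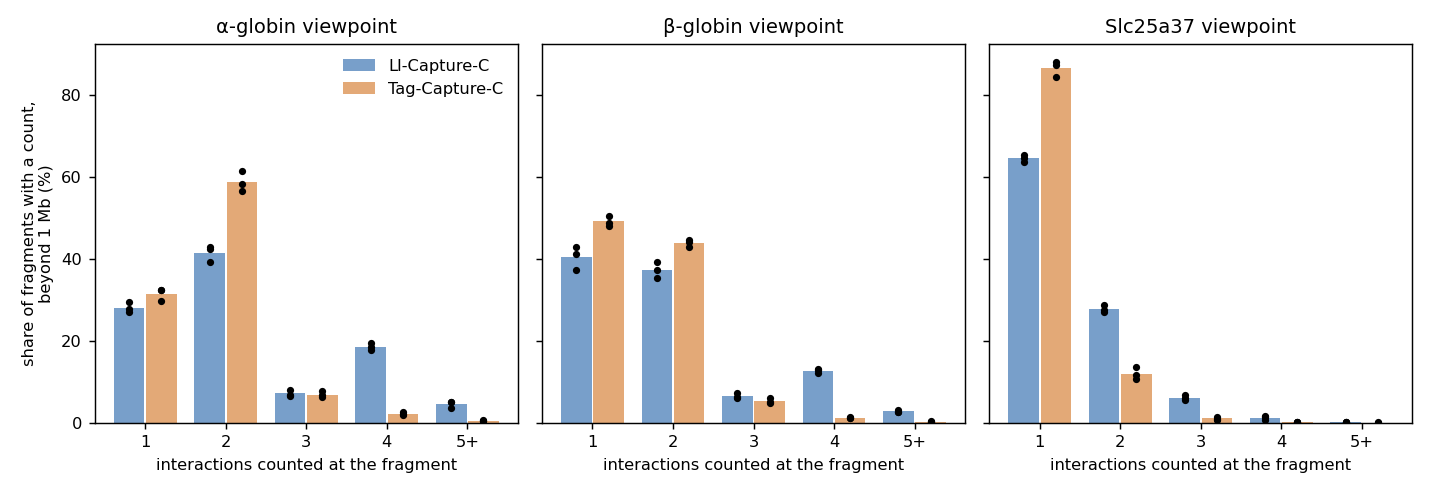
Share of the restriction fragments beyond 1 Mb with a count that held 1, 2, 3, 4 or at least 5 interactions at 100 ng, with bars at the mean of the 3 libraries of a protocol and a point for each library. Counts of 4 stand out in LI-Capture-C at α-globin (18.6%) and β-globin (12.7%), against 2.24% and 1.27% in Tag-Capture-C.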

How the data were processed

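For every DpnII fragment, the authors counted its unique interactions with a viewpoint by their Capture-C pipeline, and the deposited tables hold these counts without normalization. The submitters' processing notes name mm9, Trim Galore and Bowtie, and versions are not given in the sources used here. Per the methods, read pairs with identical ends were removed as PCR duplicates, and in low-input libraries also those with 1 or 2 differences in these ends. The counts of a globin promoter pair were pooled. How duplicates were removed sets how many interactions count as unique. No column was left without a sample.

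The 6 libraries of 100 ng were compared over 3 viewpoints, with members and lists chosen with earlier results of these data known. Viewpoints were found as gaps of at least 1500 bp in the listed fragments near the strongest fragment. Positions were used only on the viewpoint's chromosome. Shares and ratios were tested with exact two-sided permutation tests (20 splits of 3 against 3, or 400 and 8000 assignments within inputs), and windows and fragments in R 4.3.3 with edgeR 4.0.16 (glmQLFit and glmQLFTest, libraries scaled by TMM). Features averaging under 10 interactions were left out, p-values were adjusted by Benjamini-Hochberg, and the fit was tested first on simulated data. DESeq2 1.42.0 was the alternative. Other steps used Python 3.11.15, NumPy 2.4.6, pandas 2.3.3, SciPy 1.17.1 and matplotlib 3.10.9. Values per 100000 are scaled to each library's total, while fold changes use TMM factors. Named were the 2 strongest windows on each side, up to 3 features past the threshold in each direction, or the 1 with the smallest p in each direction where none passed. In chi-square tests of their counts, 6 of 6 pairs of libraries of a protocol had an unadjusted p under 0.05 at α-globin and β-globin. At Slc25a37 4 of 6 did, and no library was taken as a duplicate. These tests take each interaction as an independent count, which was not shown, so they do not measure spread beyond counting noise. The shares by position, of the whole profile and per distinct fragment, and the fits over 3 inputs, were added after the data were seen. GC content was not compared because no genome of this build was used here.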

Additional observations from a re-analysis of the deposited data

Results flagged for a closer look

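The number of local interactions per distinct fragment at β-globin changed with input. At 100 ng it was 8.16 ± 0.363 (SD, n = 3) in LI-Capture-C and 6.74 ± 0.145 in Tag-Capture-C, a difference of -1.42, while at 50 ng the difference was 0.35, with every Tag-Capture-C library above every LI-Capture-C library. The difference between the inputs passed (adjusted p = 0.03, exact permutation of labels within inputs). This permutation supposes no protocol difference at either input, so its p does not measure the change between inputs alone. Totals also changed places, since at 50 ng the Tag-Capture-C libraries held more interactions (5909 to 6221) than the LI-Capture-C libraries (4564 to 4983), and the part of depth in the result was not tested.

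The share of β-globin interactions with other chromosomes was 0.901 percentage points lower in Tag-Capture-C at 100 ng (a difference of -0.901) and 1.33 points higher at 200 ng, without overlap at either input. The difference between these inputs did not pass (adjusted p = 0.075, exact permutation), in a test with the same limit.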

How the results depend on the processing

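Counts of features past the threshold were small and moved with the setting. For α-globin windows (2) the count was 1 with DESeq2, 0 with no filter on low counts, 0 with all 18 low-input libraries, 0 in windows of 10 kb and 0 to 1 when a library was left out. For α-globin fragments (1) it was 0 with a mean count of at least 5, with no filter, with all 18 libraries and with the replicate block, and 0 to 2 when a library was left out. For β-globin windows (0) it was 1 with totals as scaling, 1 in windows shifted by 2.5 kb, 1 in windows of 10 kb and 0 to 1 with a library left out. For β-globin fragments (0) it was 3 with totals, 1 with a mean count of at least 5 and 0 to 1 with a library left out, and for Slc25a37 windows (0) it was 1 with totals and 0 to 1 with a library left out.

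Mean r-values between protocols were 0.891, 0.868 and 0.823 over fragments and 0.762, 0.774 and 0.720 on the log2 scale. Differences near 0 changed sign. The β-globin side ratio was 0.0011 at 5 to 250 kb and -0.0575 to 0.0465 with a library left out, that of Slc25a37 -0.0303 to 0.0585, and its share within 250 kb -0.282 to 0.305 points. The β-globin window at 111015001 was -0.0661 with totals and -0.0155 to 0.10 with a library left out, and that at 111005001 was 0.0031 with DESeq2, 0.0254 with all 18 libraries and -0.10 to 0.10. Other windows that changed sign with a library left out were 32165001 (-0.12 to 0.0454), 32175001 (-0.0134 to 0.12), 110955001 (-0.26 to 0.0060), 110950001 (-0.15 to 0.0151), 69895001 (-0.0023 to 0.16) and 69890001 (-0.0256 to 0.0726).

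Whether replicate numbers pair the libraries stayed undecided, because 3 libraries per protocol give few correlations and the viewpoints differed. The deviations of same-numbered libraries correlated at 0.37, -0.02 and 0.32 at α-globin. At β-globin these values were 0.03, -0.27 and -0.22, and at Slc25a37 0.14, 0.05 and 0.04. For libraries of different numbers, the lowest value was -0.38 and the highest 0.05 at α-globin. The lowest and highest such values were -0.05 and 0.30 at β-globin, and -0.10 and 0.05 at Slc25a37. With the replicate block, 2 α-globin windows and 0 α-globin fragments passed (adjusted p = 0.239, edgeR, for the fragment called without it), and 0 features passed at the other viewpoints, with 2 and 12 β-globin and 2 and 4 Slc25a37 windows and fragments at an unadjusted p under 0.05. Fragments near the minimum mean count of 10 hold few interactions, so differences there were hardly detectable at this depth.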
